A study of Danio rerio with 57 samples.

Results

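H3K9me3, trimethylation of lysine 9 on histone H3, is the mark of constitutive heterochromatin. It is written by SET-domain methyltransferases of the SUV39 and SETDB1 families and is bound by HP1 proteins, which can recruit further methyltransferase so that the mark spreads along neighbouring nucleosomes. In many animals it is laid down anew in the early embryo, mainly over transposons and satellite repeats, around the time when the zygotic genome is activated. Described here are the latest H3K9me3 places of a zebrafish time course, those first listed at 4 or 4.5 h post fertilisation (hpf) and present at 4.5 hpf, when the late blastula is about to begin or has begun epiboly. They were chosen from the deposited lists by presence and absence alone. Touching and overlapping regions of all 6 lists on chromosomes 2 to 9 and 15 to 25 were merged into 49729 union places, and a place was taken as late when it held no region at 2, 2.5, 3 or 3.5 hpf and at least 1 region at 4.5 hpf. The rule gave 6242 late places, of which 3054 were also in the 4 hpf list (shared late places) and 3188 were in the 4.5 hpf list alone (4.5 hpf-only places).

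The mark was mapped in whole embryos of the AB genotype by CUT&RUN, an assay that tethers a nuclease to an antibody and sequences the fragments it frees from marked nucleosomes. The time course has 2 H3K9me3 libraries at 2 hpf and 3 at each of 2.5, 3, 3.5, 4 and 4.5 hpf, all made with an Abcam antibody and an E. coli DNA spike-in, together with 10 control libraries made with IgG, an antibody without a chromatin target. A confirmation experiment with 27 H3K9me3 and 3 IgG libraries was not analysed here. Each time point has 1 deposited list that does not say which libraries entered it, and it was taken as a pool of the time course libraries. No number of embryos per library is given in the labels. Replicates therefore cannot be told apart, no difference below has a replicate check, and no test was made. Read depth is unknown, so a place absent from an early list may have been below what that library could show.

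Chromosomes 1 and 10 to 14 were left out because their 4.5 hpf regions stand apart. On chromosomes 1 and 10 to 13 the median deposited signal was 643 at 4.5 hpf and 102 at 4 hpf, against 126 and 107 on the 19 chromosomes kept. On those 19 chromosomes the successive lists contained 5673, 16006, 24729, 33146, 38899 and 25986 regions, which covered 0.473%, 1.66%, 3.35%, 5.41%, 6.86% and 6.41% of the sequence. The 4.5 hpf list was shorter than the 4 hpf list and its regions were wider, with medians of 1673 and 1051 bp. No source used here names the genome build, so no gene, repeat or sequence is assigned to a position. Coordinates are those of the lists, counted from 1.

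Late places made up more of the marked places by number than of the marked sequence. Of 25423 places overlapped at 4.5 hpf, 24.6% were late, 12.01% being shared late places and 12.5% 4.5 hpf-only places. They held 7.37 Mb of the 66.7 Mb covered at 4.5 hpf, or 11.05%, divided into 4.38 Mb in shared late places and 3.00 Mb in 4.5 hpf-only places. Most places that first appeared at 4 hpf were not seen again. Of 9253 such places, 33.0% were present at 4.5 hpf and 6199, or 67.0%, were absent. The latter are called 4 hpf-only places below. Among places first listed at 2, 2.5, 3 and 3.5 hpf, the share found in the next list was 66.5%, 64.9%, 61.7% and 71.4%. The last list is the shorter of its pair, unlike each earlier one, and the part of list length in the lower share was not tested.

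The rule turns on a single base of contact with an earlier region. The nearest late places lay 1 bp from one, as at chromosome 19, 37764355 to 37764955, a shared late place of 601 bp next to a place first seen at 3.5 hpf and absent at 4.5 hpf, and at chromosome 20, 26642533 to 26644213, 1681 bp long. A 4.5 hpf-only place of 794 bp at chromosome 6, 33395074 to 33395867, lay 1 bp from a place of 3170 bp that was first seen at 3.5 hpf. In all, 22 late places lay within 50 bp of an earlier place. Just outside the rule, 22 regions of the 4.5 hpf list shared 1 to 50 bases with an earlier region. The smallest overlaps were 1 bp for a 627 bp region at chromosome 5, 54350116 to 54350742, and 2 bp for a 500 bp region at chromosome 7, 11508290 to 11508789. A further 115 regions at 4.5 hpf shared no base with an earlier region and were joined to one through a region of another list or by touching.

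Shared late places were wider than 4.5 hpf-only places. The union width of shared late places ran from 379 to 13657 bp with a median of 1171 bp, and that of 4.5 hpf-only places from 271 to 8898 bp with a median of 749 bp. At least 1 kb was reached by 1851 shared late places (60.6%) and 948 4.5 hpf-only places (29.7%), at least 2 kb by 652 and 205, and at least 5 kb by 57 and 5. The order of the medians was the same on all 19 chromosomes. Both kinds were narrow beside earlier places present at 4.5 hpf, whose median was 2495 bp, and beside the 4796 places first seen at 3.5 hpf and found in both later lists, with 1635 bp. A union place takes its width from every list that overlaps it, so a place in more lists is wider by construction. With all 6 lists cut to regions named primary before merging, 736 shared late and 322 4.5 hpf-only places were found. Their median widths were 3398 and 3290 bp. That cut also removes early regions, so a place with other regions at 2 to 3.5 hpf can count as late there. In the late places described here, 195 and 68 regions of the 4.5 hpf list were named primary.

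Lengths in the first list that held a place differed with whether the place was found again. Shared late places were selected for being in the next list as well, as were 33.0% of the 9253 places first listed at 4 hpf, while 4.5 hpf-only places have no next list and were not selected in this way. Shared late places covered a median of 749 bp at 4 hpf, with quartiles of 500 and 1129 bp, and 4.5 hpf-only places a median of 749 bp at 4.5 hpf, with quartiles of 500 and 1080 bp. At least 1 kb was covered by 30.2% of the former at 4 hpf and 29.7% of the latter at 4.5 hpf. Places that went on to the next list had similar median lengths when first listed at the earlier times, in order of time 795, 753, 752 and 741 bp. Over all places first listed at a time, found again or not, the medians from 2 to 4 hpf were 634, 613, 629, 635 and 591 bp, below the 749 bp of the 4.5 hpf-only places. Places missing from the next list had a median of 500 bp at each of the 5 times, the 4 hpf-only places among them. A length of exactly 500 bp was common and was found for 419 4.5 hpf-only places (13.1%), 278 shared late places at 4 hpf (9.10%) and 986 4 hpf-only places (15.9%).

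**Figure D1:**
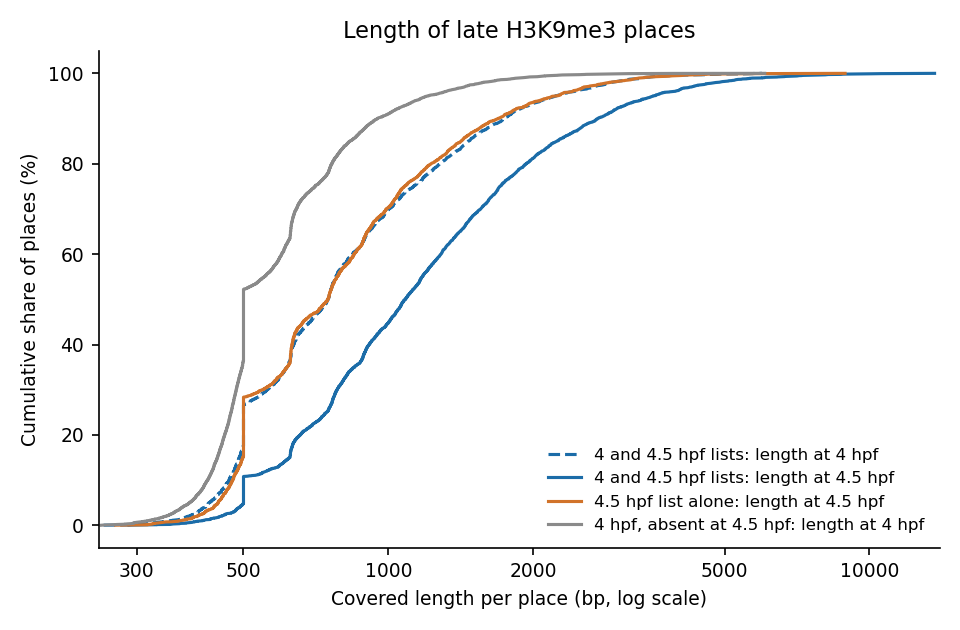
Cumulative share of places (y axis, %) against covered length per place (x axis, bp, log scale) for shared late places at 4 and at 4.5 hpf, 4.5 hpf-only places and 4 hpf-only places. The curves of shared late places at 4 hpf and 4.5 hpf-only places lie on each other with medians of 749 bp, although the former were selected for being found again, shared late places at 4.5 hpf lie to the right at 1086 bp and 4 hpf-only places to the left at 500 bp, with a step at 500 bp in each curve.

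Between 4 and 4.5 hpf the shared late places covered more sequence, and more often than places marked earlier. Their total covered length was 2.90 Mb at first and 4.38 Mb in the last list, and their median length was 749 and then 1086 bp. The length at 4.5 hpf was above that at 4 hpf in 2400 of 3054 places (78.6%), where 61.9% of all 21364 places in both lists were longer. It was at least 1.5 times that at 4 hpf in 1234 places (40.4%), against a background of 16.3%, and at least 1.5 times shorter in 141 (4.62%), against 6.76%. These shares do not allow for length at 4 hpf, and for shortening the order was reversed in the length classes from 750 bp upwards (given below). The median ratio of the lengths was 1.34 with quartiles of 1.03 and 1.87. For all earlier places in both lists the median ratio was 1.04 and for those first seen at 3.5 hpf it was 1.13. The median for late places was above that for earlier places on 19 of 19 chromosomes, at 1.21 to 1.68 against 1.02 to 1.10.

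Short places had larger ratios in every cohort, so places were set side by side in classes of length at 4 hpf. Among places under 500 bp at 4 hpf, the median ratio was 1.70 for 535 late places and 1.47 for 310 earlier ones. From 500 to under 750 bp it was 1.42 against 1.26, from 750 to under 1000 bp 1.27 against 1.15, from 1000 to under 2000 bp 1.19 against 1.05, and from 2000 bp upwards 1.12 against 1.01. The late places had the larger median in each of the 5 classes, and the quartile ranges overlapped in each. The class from 2000 bp upwards has no upper limit. In it the median length at 4 hpf was 2594.5 bp for late and 3828 bp for earlier places, so lengths were not alike there. Shortening by at least 1.5 times was also more frequent among late places from 750 bp upwards. It was found for 7.79% against 6.25% from 750 to under 1000 bp and 9.21% against 8.34% from 1000 to under 2000 bp. From 2000 bp upwards it was found for 21 of 206 late and 714 of 9400 earlier places. From 500 to under 750 bp it was rarer among late places, at 0.604% against 1.59%. Under 500 bp 1 late place and 0 earlier ones were so shortened. The 9400 earlier places of at least 2000 bp had nearly equal lengths in the lists. Late places have had a single list in which to be seen before, so this comparison sets the first step after listing against later steps. The first step of earlier cohorts, among places found in the next list, gave median ratios of 1.80, 1.59, 1.42 and 1.20 for places first listed at 2, 2.5, 3 and 3.5 hpf. At 1.34, the first step of the late places lay between the last 2 of these.

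**Figure D2:**
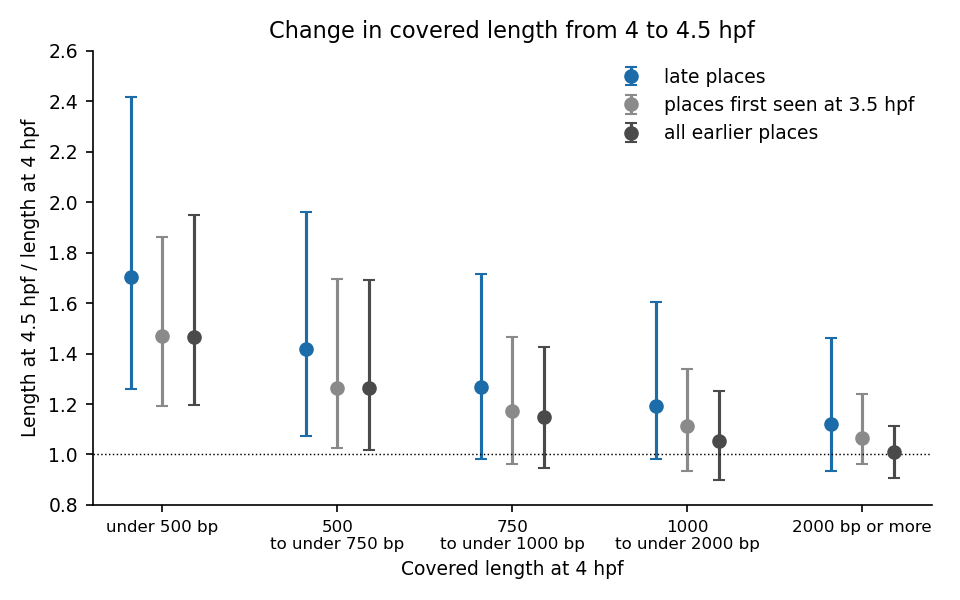
Ratio of covered length at 4.5 hpf to that at 4 hpf (y axis) by covered length at 4 hpf (x axis, 5 classes) for shared late places, places first seen at 3.5 hpf and all earlier places; points are medians over places and bars run from the lower to the upper quartile. The median of late places is the highest in each class, 1.70 in the shortest and 1.12 in the longest, and the bars overlap.

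In more than 50% of shared late places the 4.5 hpf region reached beyond the 4 hpf region on both sides. The 4.5 hpf region reached beyond the 4 hpf region at both edges in 1658 shared late places (54.3%), at one edge in 1153 (37.8%) and at neither in 243 (7.96%). The median shift of the left edge was 103 bp outward and that of the right edge 112 bp. In 1668 places (54.6%) all sequence covered at 4 hpf was still covered at 4.5 hpf. Over all shared late places 1.76 Mb was newly covered and 0.283 Mb was no longer covered. A single 4.5 hpf region lay over more than 1 region of the 4 hpf list in 192 places (6.29%). All these shares were counted for shared late places only, and no background over all places in both lists was computed. Regions of the 4.5 hpf list were wider in general, with a median of 1673 bp against 1051 bp at 4 hpf. Joining of neighbours could be seen only in places with more than 1 region at 4 hpf, of which 183 held 2 and 11 held 3. Separate 4 hpf regions share a late place only where a 4.5 hpf region links them, so their joining follows from the merging. Neighbours that stayed apart were counted as separate places, so these counts give no frequency of joining. The other 2860 shared late places held 1 region at 4 hpf.

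The 5 widest shared late places were each a single long region at 4.5 hpf. In each the union width equals the 4.5 hpf length, so a smaller length at 4 hpf follows from the choice. The widest, at chromosome 4, 52690287 to 52703943, was covered over 5281 bp at 4 hpf and 13657 bp at 4.5 hpf, 3389 bp from a place first seen at 3 hpf that was absent at 4.5 hpf. The second, at chromosome 17, 50035307 to 50047355, held 2817 bp at 4 hpf and 12049 bp at 4.5 hpf, with a nearest earlier place 14997 bp away. A place at chromosome 4, 37198834 to 37209420, had 2 regions covering 5716 bp at 4 hpf under a single region of 10587 bp at 4.5 hpf. Further along the arm, at chromosome 4, 37853332 to 37863410, 1493 bp in 2 regions preceded 10079 bp. The fifth, at chromosome 19, 40132151 to 40141887, had 3 regions with 3770 bp at 4 hpf and 9737 bp at 4.5 hpf, and stood 150 kb from any earlier place. These 5 thus had between 1 and 3 regions at 4 hpf and a single one at 4.5 hpf, and 3 of them lay on the long arm of chromosome 4. A single region at 4.5 hpf was held by 3051 of the 3054 shared late places. Separate 4.5 hpf regions share such a place only where a 4 hpf region links them, so this count depends on the merging.

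Wide 4.5 hpf-only places were rarer. The widest was a region of 8898 bp at chromosome 9, 6533354 to 6542251, with the nearest earlier place, a 500 bp place first seen at 3.5 hpf, 11949 bp away. It was followed by 7407 bp at chromosome 4, 72903956 to 72911362, 5850 bp at chromosome 7, 60014189 to 60020038, and 5753 bp at chromosome 4, 44778648 to 44784400. The fifth, 5137 bp at chromosome 17, 50061368 to 50066504, lay on the same chromosome and within 20 kb of the second widest shared late place, and both had as nearest earlier place the one at 50016364 to 50020309, first seen at 2.5 hpf. By the rule these 5 had no base listed at any earlier time. Each was a single region, as were all 3188 4.5 hpf-only places. This too follows from the rule, because separate 4.5 hpf regions with no other region to link them count as separate places.

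Deposited signal placed late regions in the lower part of the 4.5 hpf list. The median signal was 69.6 for regions in shared late places (quartiles 42.4 and 125.2) and 46.6 for 4.5 hpf-only places (29.0 and 84.7), against 126 over the whole list and 101 for places first seen at 3.5 hpf and kept. Signal above the list's median was found for 24.7% of the first and 13.2% of the second. Regions named primary, a label that no header explains, made up 6.38% and 2.13% of them and 12.4% of the list. The deposited p-value was under 0.05 for 3.37% and 1.07%, against 7.52% of the list. No source used here says what that p-value tests, and a high value need not mean a weak region. The 4639 regions of the list with a p-value above 0.95 had a median signal of 615.

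Signal followed width. Among 4.5 hpf regions under 750 bp, the median signal was 31.6 in shared late places, 29.4 in 4.5 hpf-only places and 34.2 in earlier places. From 1000 to under 2000 bp it was 89.2, 90.6 and 103, and from 2000 bp upwards 211, 207 and 336. In each of these width classes the 2 late kinds thus had medians within a few units of each other, while earlier places had the higher median. The class from 2000 bp upwards has no upper limit. Regions of at least 5 kb numbered 3219 of 19741 in earlier places, 54 of 3057 in shared late places and 5 of 3188 in 4.5 hpf-only places. At 4 hpf, regions that lay in shared late places had a median signal of 59.0 and those in 4 hpf-only places 38.5, in a list with a median of 107. Primary was the name of 13.3% and 2.25% of them, against 31.6% of the whole 4 hpf list.

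In both kinds the median late place lay several kb from the nearest earlier place. The distance from a place to the nearest earlier place, edge to edge, had a median of 7157 bp for shared late places, with quartiles of 2402.5 and 19156 bp. For 4.5 hpf-only places the median was 8155 bp, with quartiles of 2716.5 and 20140 bp. Under 1 kb lay 285 (9.33%) and 341 (10.7%), under 5 kb 1251 (41.0%) and 1183 (37.1%), and at 50 kb or more 208 (6.81%) and 253 (7.94%). The 4 hpf-only places, measured against the same earlier places, were nearer, with a median of 6115 bp and 44.9% under 5 kb. These distances depend on how many earlier regions were listed, and no expected distance was computed. The order of the 2 kinds was kept in 8 of 10 alternative settings. Some of these settings also cut the early lists, so they hold partly different places. With a requirement of at least 5 kb, the shared late places had the larger median, at 15812 bp against 15704 bp. This requirement cuts on the distance itself, so it says little about the order over all places. With all lists cut to regions named primary it was 26739 bp against 24105 bp, for partly different places and fewer earlier regions.

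**Figure D3:**
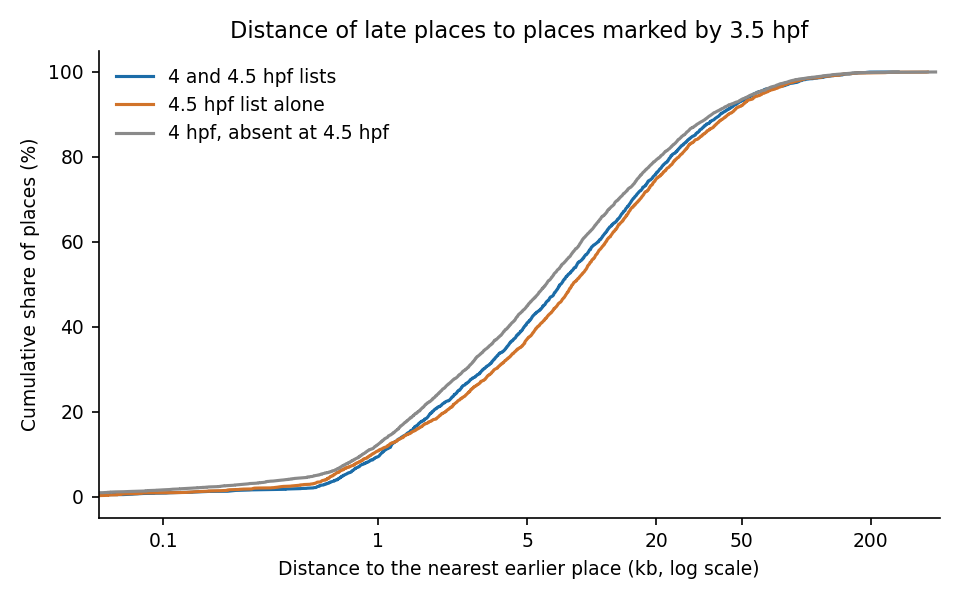
Cumulative share of places (y axis, %) against the distance to the nearest place marked at 3.5 hpf or before (x axis, kb, log scale, drawn from 0.05 kb) for shared late places, 4.5 hpf-only places and 4 hpf-only places. The curves run close together, with medians of 7157, 8155 and 6115 bp.

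Most late places did not have earlier places within 5 kb on both sides, and no expected share was computed. Earlier places lay within 5 kb on both sides of 212 shared late places (6.94%) and 206 4.5 hpf-only places (6.46%), and on one side of a further 1039 (34.0%) and 977 (30.6%). For 4 hpf-only places the figure on both sides was 9.97%. Where both sides were flanked, the median gap between the earlier places was 5912 bp around shared late places and 5510 bp around 4.5 hpf-only places. Width was somewhat smaller far from earlier places. Shared late places under 1 kb from an earlier place were 1248 bp wide in the median, against 1089 bp at 50 kb or more, while for 4.5 hpf-only places the medians were 801 and 630 bp.

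The nearest earlier place was somewhat more often a recent and a lasting one. It was first seen at 3.5 hpf for 39.1% of shared late places and 37.2% of 4.5 hpf-only places, against 31.6% of all 37288 earlier places, and at 2 hpf for 10.1% and 10.4%, against 13.6%. It was present at 4.5 hpf for 56.0% and 55.9%, against 51.4% of all earlier places. Around 4 hpf-only places the corresponding values were 34.3%, 11.9% and 53.7%, between those of late places and of all earlier places. The shares over all earlier places do not allow for how those places are spaced, and no expected share for a nearest place was computed.

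The late places farthest from an earlier mark lay on chromosomes 4, 8, 16 and 20. The farthest shared late place, at chromosome 20, 35123017 to 35123758, covered 467 bp at 4 hpf and 677 bp at 4.5 hpf and stood 269 kb from an earlier place. The next were at chromosome 8, 26683258 to 26684342, 198 kb away, with 647 and 1030 bp, and at chromosome 20, 32857681 to 32858579, 195 kb away, with 584 and 899 bp. Each of these 3 was longer at 4.5 hpf. The farthest 4.5 hpf-only places, both on chromosome 4 before its long arm, were 637 bp at 21230973 to 21231609, 368 kb away, and 574 bp at 21338169 to 21338742, 364 kb away. The third, 2077 bp at chromosome 16, 41818404 to 41820480, was 252 kb away.

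Of the late places, 59.9% were single in their run, 941 lay in runs of 3 or more, and no expected share was computed. The 6242 late places formed 4799 runs uninterrupted by an earlier place, of which 3737 held a single late place, 782 held 2 and 280 held 3 or more. Late places within 5 kb of another late place numbered 1009 (16.2%), and the median distance to the nearest late place was 38030 bp. The longest runs had 7 places. One, at chromosome 4, 59040605 to 59104938, consisted of 7 shared late places over 64.3 kb with 17.5 kb covered at 4.5 hpf. The other, at chromosome 2, 5226392 to 5250291, held 4 shared late and 3 4.5 hpf-only places over 23.9 kb. A run of 6 at chromosome 20, 34859842 to 35123758, spread over 264 kb and ended in the farthest shared late place named above. A 4.5 hpf-only place lay within 5 kb of a shared late place in 251 cases (7.87%).

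The long arm of chromosome 4, taken from 28 Mb to the end, held the highest density of late places. This arm is known to be heterochromatic and rich in repeats and in repeated gene copies. It makes up 4.81% of the sequence and held 313 shared late places (10.2%) and 339 4.5 hpf-only places (10.6%). Densities there were 6.25 and 6.77 per Mb, against 2.81 and 2.92 per Mb on the other 18 chromosomes, ratios of 2.22 and 2.32. Earlier places had a ratio of 1.40, places first seen at 3.5 hpf and kept 1.501 and 4 hpf-only places 1.52. Late places were 31.4% of the places marked on the arm at 4.5 hpf and 24.0% on the other 18 chromosomes. In the part of chromosome 4 before 28 Mb there were 35 and 37, or 1.25 and 1.32 per Mb, the lowest densities in the comparison. Earlier places were sparse there too, at 18.8 per Mb against 35.6 per Mb on the other 18 chromosomes, and late places were 21.6% of those marked there at 4.5 hpf, below the 24.0% of the other 18.

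Shared late places on the arm were also longer and covered more at 4.5 hpf. The median length on the arm went from 799 to 1720 bp between the lists, and from 744 to 1043 bp on the other 18 chromosomes. The median ratio was 1.71 on the arm and 1.30 on the other 18. At least 1.5 times the 4 hpf length was reached by 188 of 313 arm places (60.1%) and by 38.1% on the other 18 chromosomes. For earlier places the median ratio was 1.12 on the arm and 1.03 on the other 18, and 20.6% and 11.7% reached 1.5 times. A higher share on the arm was thus also found among earlier places. The 4.5 hpf-only places had a median width of 787 bp on the arm and 745 bp on the other 18 chromosomes. These are lengths in their first list, and no later list exists for them. In their own first list, at 4 hpf, shared late places were as close, at 799 and 744 bp, although selected for being found again. Without chromosome 4, the median widths were 1136 bp for shared late and 745 bp for 4.5 hpf-only places.

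**Figure D4:**
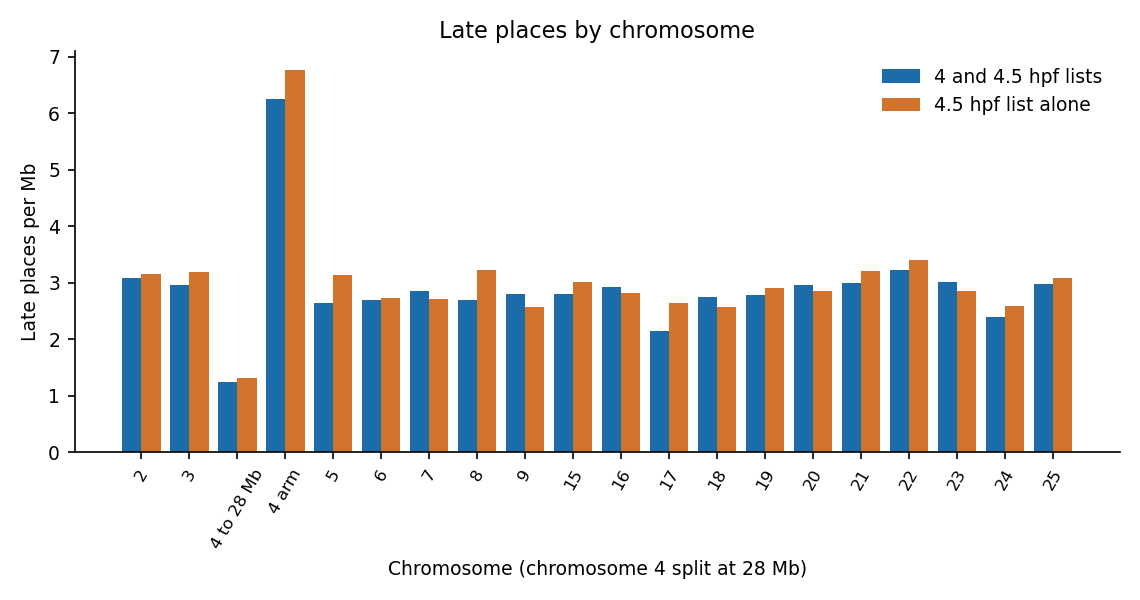
Late places per Mb (y axis, from 0) on each of the 19 chromosomes (x axis), with chromosome 4 split at 28 Mb, for shared late places and 4.5 hpf-only places; each bar is a single count over a length, without error. The long arm of chromosome 4 stands at 6.25 and 6.77 per Mb and the part before it at 1.25 and 1.32 per Mb.

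On each of the other 18 chromosomes the densities of late places lay below those of the arm. Shared late places ran from 2.15 per Mb on chromosome 17 to 3.22 per Mb on chromosome 22, and 4.5 hpf-only places from 2.57 per Mb on chromosomes 9 and 18 to 3.40 per Mb on chromosome 22. Earlier places ran, on these chromosomes, from 31.2 per Mb on chromosome 6 to 46.2 per Mb on chromosome 22, with 45.01 per Mb on chromosome 25. As a share of the places marked at 4.5 hpf, late places were fewest on chromosomes 25 and 17, with 21.1% and 21.3%, and, chromosome 4 aside, most on chromosome 21, with 27.2%. The densities of the 2 late kinds differed by at most 0.534 per Mb on these 18 chromosomes.

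At chromosome ends late places were hardly denser than in the interior. The outer 1 Mb on each side held 126 shared late and 127 4.5 hpf-only places, 3.32 and 3.34 per Mb, against 2.92 and 3.05 per Mb in the interior. The ratios were 1.14 and 1.09. Earlier places had a ratio of 2.17, with 74.6 per Mb at the ends and 34.4 per Mb in the interior, places first seen at 3.5 hpf and kept had 1.47 and 4 hpf-only places 1.59. Late places were 14.4% of the places marked at the ends at 4.5 hpf and 25.3% in the interior. The shared late places at the ends had a median ratio of 1.26 from 4 to 4.5 hpf, and earlier places there 0.988.

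Late places were denser in the groups of windows with more earlier coverage than in the least covered group. The 19 chromosomes were divided into 1034 windows of 1 Mb and ranked into 5 equal groups by the share covered at 3.5 hpf, whose medians ran from 1.14% to 11.8%. Shared late places numbered 1.80 ± 1.48 per window (SD over 207 windows) in the least covered group, 2.14 ± 1.68 in the next, 3.21 ± 2.20 in the middle, 3.68 ± 2.54 in the fourth and 3.86 ± 2.36 in the highest. For 4.5 hpf-only places the means were 1.86, 2.31, 3.32, 4.02 and 3.79. The most covered group thus had 2.14 and 2.04 times the density of the lowest, where earlier places had 4.66 times and 4 hpf-only places 2.61 times. Windows on the chromosome 4 arm, of which 28 lay in that group, contributed to the upper end. Without them the means of that group were 3.53 and 3.46. A window with much sequence already marked has less left in which a late place can lie, and no correction for this was made. Coverage at 3.5 hpf is made up of earlier places, so their value of 4.66 times follows at least in part from the ranking. It is no measure of how closely late places follow earlier coverage.

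**Figure D5:**
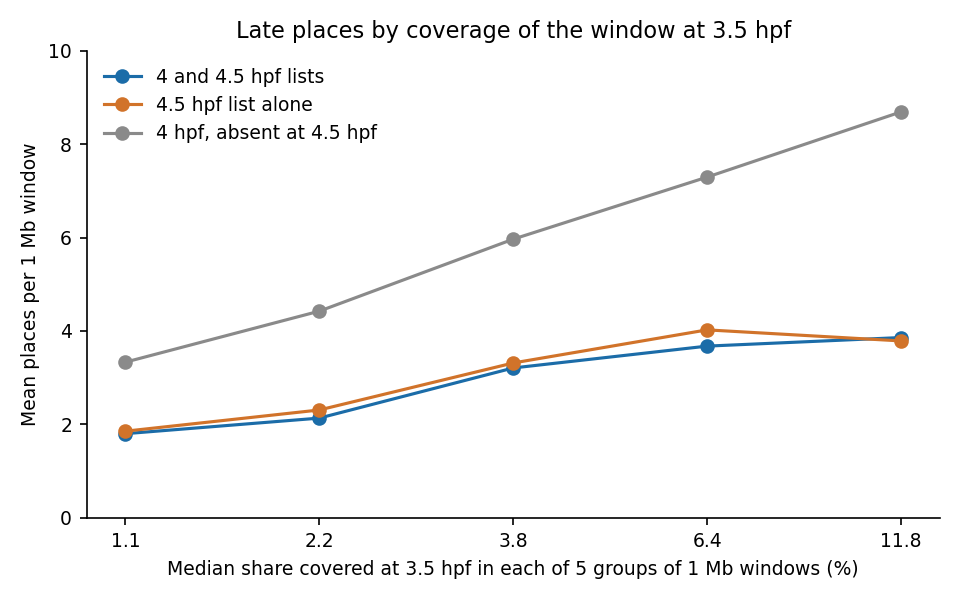
Mean number of places per 1 Mb window (y axis) in 5 equal groups of windows ranked by the share covered at 3.5 hpf (x axis, median of each group, %), for shared late places, 4.5 hpf-only places and 4 hpf-only places. Late places go from 1.80 and 1.86 to 3.86 and 3.79 per window and level off over the last 2 groups, while 4 hpf-only places go from 3.33 to 8.69.

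Late places were widely spread, with local concentrations on chromosome 4. Only 27 windows (2.61%) held none, and the median was 5 per window. Of the 35 windows with 15 or more, 18 were among the 50 on the chromosome 4 arm. The fullest was chromosome 4, 59000001 to 60000000, with 17 shared late and 13 4.5 hpf-only places beside 55 earlier ones, and it holds the run of 7 described above. The next, at 67000001 to 68000000 on the same arm, had 12 and 13 beside 25 earlier places. Outside chromosome 4, 18 late places each were counted at chromosome 2, 57000001 to 58000000, chromosome 21, 4000001 to 5000000, and chromosome 5, 9000001 to 10000000.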

How the data were processed

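CUT&RUN libraries of whole zebrafish embryos were made with H3K9me3 antibodies or IgG. Per the submitters' processing notes the tools were HOMER, bedtools, Picard, SAMtools, STAR and Trim Galore, whose roles are not stated. The authors deposited 1 list per time point without a header. By their values, the deposited columns used were position, region name, signal and p-value. The deposited score follows the log2 of the p-value and was not used. How the authors normalised the signal is not stated by any source used here, so it was compared within a list only. No table of fold changes or read counts was used, and the depth per library is unknown.

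Regions were merged and dated with pandas 2.3.3 and numpy 2.4.6, and the code was checked against simulated lists and bedtools. Chromosome lengths are the furthest region end in any list. No statistical test was made, because replicates are pooled. The members, groups and measures were chosen with earlier results of these data known. The named places were the 5 widest, 3 farthest from and 3 nearest to an earlier place and the widest on the chromosome 4 arm, for each kind. Windows, runs and examples outside this rule were chosen after the values were seen. The supplied RefSeq gene table describes GRCz12tu, and its positions were not used.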

Additional observations from a re-analysis of the deposited data

Results flagged for a closer look

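Late places were also found in sequence that no comparison above used, and were flagged for passing a limit of 3 set for a count of 0. At 4.5 hpf 25986 of 33704 listed regions lay on the 19 chromosomes, so late places elsewhere were bound to pass that limit. It therefore decides nothing about them, and their share of the marked places there was not computed. No control list was analysed here. Unplaced scaffolds held 155 shared late places on 120 scaffolds, with a median width of 1276 bp, and 164 4.5 hpf-only places on 119, with 625 bp. Chromosomes 1 and 10 to 14 held 690 shared late places, with a median width of 1204 bp, and 1023 4.5 hpf-only places, with 774 bp. On chromosomes 1 and 10 to 13 there were 3.52 to 4.38 4.5 hpf-only places per Mb and 2.40 to 2.75 shared late places per Mb. Chromosome 14 had 0.988 and 0.760 per Mb, counted over its whole length of 52.7 Mb. Its 4.5 hpf regions are among those that stand apart, so these low densities cannot be read as a lack of late places. These differences were not tested.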

How the results depend on the processing

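Of 78 values under 10 alternative settings, 35 stayed within 1.5 times (numbers) or within the 95% binomial interval of the reported value (medians and shares), and 43 moved. That interval treats places as independent. The values below are given for shared late places first and 4.5 hpf-only places second. With a distance of at least 5 kb from earlier regions, numbers were 1803 and 2005, median widths 1132 and 717 bp and distances 15812 and 15704 bp. With regions named primary, numbers were 736 and 322, widths 3398 and 3290 bp, distances 26739 and 24105 bp and chromosome 4 arm shares 14.1% and 22.7%. With the 50% lowest p-values of every list, widths were 1940 and 1527 bp, distances 16314 and 17342 bp and the arm share of 4.5 hpf-only places 14.3%. With only the 4 and 4.5 hpf lists so reduced, numbers were 825 and 1441, widths 1895 and 1446 bp, distances 6554 and 7356 bp and that arm share 15.1%. With 5673 regions per list, numbers were 1027 and 1845, widths 2992 and 2571 bp, distances 23807 and 25854 bp and arm shares 8.18% and 14.5%. On all 25 chromosomes, distances were 7675 and 9052 bp and arm shares 8.36% and 8.05%. When regions within 1 kb were merged, the width of shared late places was 1226 bp and distances were 8517 and 9946 bp. The width of shared late places was 1081 bp when dated by direct overlap and 1136 bp without chromosome 4. These 2 settings, and the one without the 2 hpf list, which moved no value, were added after the data were seen. Shared late places had the larger median width in 10 of 10 settings. In all but direct overlap this is the union width, which is larger by construction for a place in more lists. The order of distance held in 8 of 10 and that of the arm share in 8 of 9. That of the numbers held in 7 of 10, with more shared late places for regions named primary, for regions merged within 1 kb (2801 and 2692) and for the 50% lowest p-values of every list (2525 and 2175). Cuts of every list to regions named primary, to the 50% lowest p-values or to 5673 regions also remove early regions. A place with a region in a full early list can then count as late. With the early lists kept in full, the 50% lowest p-values gave 825 shared late places. Most of the 2525 therefore had an early region in the full lists. Orders and values under these cuts thus describe partly different places. Settings that keep the lowest p-values remove many of the widest regions (see the p-values above 0.95 given among the other observations). Leaving out a replicate was not possible because each list is pooled. No paired analysis was possible because the lists carry no replicate numbers.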

Other observations

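The deposited p-values did not run in one direction with width. At 4.5 hpf, 4639 regions on the 19 chromosomes (17.9%) had a p-value above 0.95, with a median width of 5749 bp, against 1363 bp for the rest. Of the 3278 regions of at least 5 kb, 2994 were among them. In late places such p-values were rarer, at 79 of 3057 regions in shared late places (2.58%) and 10 of 3188 in 4.5 hpf-only places (0.314%). The 79 had a median width of 5099 bp. Their places went from a median of 1914 bp to one of 5099 bp between the lists, a median ratio of 2.53, and 78 of 79 were longer at 4.5 hpf. The other 2975 shared late places had a median ratio of 1.32, and 78.1% were longer. The 79 were picked by a value that goes with wide regions at 4.5 hpf. A larger ratio among them therefore follows at least in part from the choice. All 5 of the widest shared late places had a p-value of 0.965 at 4.5 hpf. Among the late regions with p-values up to 0.9, width went the other way. Medians in 4.5 hpf-only places were 2671 bp up to a p-value of 0.1, 1262 bp from 0.3 to 0.5 and 500 bp from 0.7 to 0.9.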
